A study of Arabidopsis thaliana with 14 samples.

Results

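The genes described here are 39 nuclear genes for light-harvesting proteins and photosystem subunits in Arabidopsis thaliana, among 32548 genes with a value in the deposited tables. They were chosen by name, as the listed LHCB, LHCA, PSA and PSB genes, when earlier results of these data were already known. There are 14 LHCB genes, 6 LHCA genes, 11 PSA genes and 8 PSB genes. All 39 have a row in both tables.

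Photosystem II splits water and photosystem I passes electrons on to ferredoxin. Each is a complex of chloroplast-encoded core proteins and nuclear-encoded subunits, surrounded by chlorophyll-binding antenna proteins that collect light. LHCB proteins are the antenna of photosystem II and LHCA proteins that of photosystem I. PSA and PSB genes encode subunits of photosystems I and II. In green seedlings the transcripts of these genes are known to be abundant and to respond to light, the circadian clock and signals from the chloroplast.

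RNA was sequenced from whole 11-day-old seedlings grown on plates with 16 h of light at 23 °C and 8 h of darkness at 21 °C, in 14 libraries that form 7 groups of 2. The first table held wild-type Col-0 (replicates 1 and 2), the homozygous single mutant fve and the double mutant suvh2/9. The second held other Col-0 libraries (replicates 3 and 4), the single mutant rrm1, the triple mutant pdp1/2/3 and the quadruple mutant pdp1/2/3;rrm1, all homozygous. FVE is a histone-binding protein of the autonomous flowering pathway, SUVH2 and SUVH9 act in RNA-directed DNA methylation, and each mutant was set against the Col-0 of its own table. The labels name no mutant allele, nor whether replicates were separate cultures or which groups were grown together, so the spread behind each p-value may be technical. In whole seedlings, fewer green cells and less RNA per green cell cannot be told apart.

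Levels are deposited adjusted counts per 1e+06 of the common total of a table (CPM), given as mean ± SD (n = 2). The 6 libraries of the first table summed to between 21259805 and 21722950, where 1 count was 0.0465 CPM, and the 8 of the second to between 18609045 and 19534578, where it was 0.0520 CPM. Differences are log2 differences of the level plus 1, tested with limma over all genes that reached 1 CPM in 2 or more libraries of their table. A gene is called where its p, after Benjamini-Hochberg adjustment, is below 0.05. Of the 39 members 38 passed that filter in both tables, the lowest value among them being 10.4 CPM, for LHCB4.3 in pdp1/2/3 replicate 2. The tables were normalised separately, so no difference between them was tested. As a check of the labels, FVE was at 65.8 and 67.2 CPM in Col-0 and 15.1 and 15.5 in fve, and SUVH9 at 40.7 and 42.8 in Col-0 and 1.13 and 0.942 in suvh2/9. SUVH2 was at 9.49 and 9.42 in Col-0 and 7.27 and 7.34 in suvh2/9 (limma log2 -0.33, adjusted p = 0.335). AT5G27650, taken as PDP1 from general knowledge because the reference gives it no such name, was not lower in the mutants labelled for it: it was at 42.0 and 40.8 in Col-0, 47.3 and 48.4 in pdp1/2/3 (limma log2 0.20, adjusted p = 0.0673) and 49.5 and 49.9 in pdp1/2/3;rrm1 (log2 0.26, adjusted p = 0.0256). In the first table AT5G27650 was at 32.9 and 30.8 in Col-0, 50.3 and 48.6 in fve and 37.5 and 33.2 in suvh2/9. A higher level was thus not particular to the groups with pdp1/2/3. With no allele named, it cannot be told whether a transcript would remain, so the groups with pdp1/2/3 are named here by their labels alone. The other genes altered in rrm1 and pdp1/2/3 were not checked. In rrm1 replicate 1 only 72.8% of deposited values between 0.5 and 10 were within 0.2 of whole, and in pdp1/2/3;rrm1 replicate 1 the share was 89.96%, against 99.8% or more elsewhere.

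The members made up 11.4% to 12.0% of all adjusted counts in a library of the first table; in the second the share was 12.8% to 13.8%. Of the 39 members 34 were among the 100 genes with the highest level per kb of exon in each table. The exceptions were LHCB1.5, LHCB4.3, LHCA5, LHCA6 and PSAG. Among the antenna genes of photosystem II, LHCB1.3, which encodes a protein of the main trimeric antenna, stood highest per length at 11711 CPM per kb of exon (10663 to 12543 over the 6 libraries) in the first table and 13855 (12706 to 15548 over the 8 libraries) in the second. LHCB4.3, a gene of a minor antenna protein, was the lowest with a value above 0, at 20.7 per kb (18.6 to 23.1) and 11.0 per kb (7.15 to 13.3).

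LHCA4 was the highest antenna gene of photosystem I, at 5690.3 CPM per kb (5409 to 5889) and 5808 (5199 to 6106), ahead of LHCA1, LHCA3 and LHCA2 in both tables. LHCA5 was the lowest at 108 per kb (91.4 to 123) and 88.6 (74.5 to 99.5), next to LHCA6. These proteins link photosystem I to the NDH complex of cyclic electron flow and are not part of the main antenna belt. Among photosystem I subunits PSAD1, part of the ferredoxin docking site, was highest at 2750 per kb (2639 to 2879) and 3616 (3449 to 3878). PSAG, a membrane subunit that contacts the antenna, was lowest per kb of exon at 397 (383 to 423) and 531 (492 to 588), but 58.8% of its 50-base windows also lie in another gene. Its whole level divided by the kb of windows that belong to 1 gene alone was 1029.7 and 1376. By that measure PSAE2, another docking subunit, was lowest at 704 and 982. The measure holds only if no read in shared windows was counted, which is not known. Among photosystem II subunits PSBR was highest at 4999 per kb (4737 to 5143) and 6770.1 (6201 to 7168). PSBS, the sensor of lumen acidity needed for heat dissipation of excess light, was lowest at 910.04 (831 to 980.2) and 692 (573 to 792). Neighbours in the order of levels per kb often had overlapping libraries: in the first table this held for 6 of 12 neighbouring pairs of LHCB genes, 1 of 5 LHCA pairs, 4 of 10 PSA pairs and 1 of 7 PSB pairs, and in the second for 7, 2, 6 and 0.

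**Figure D1:**
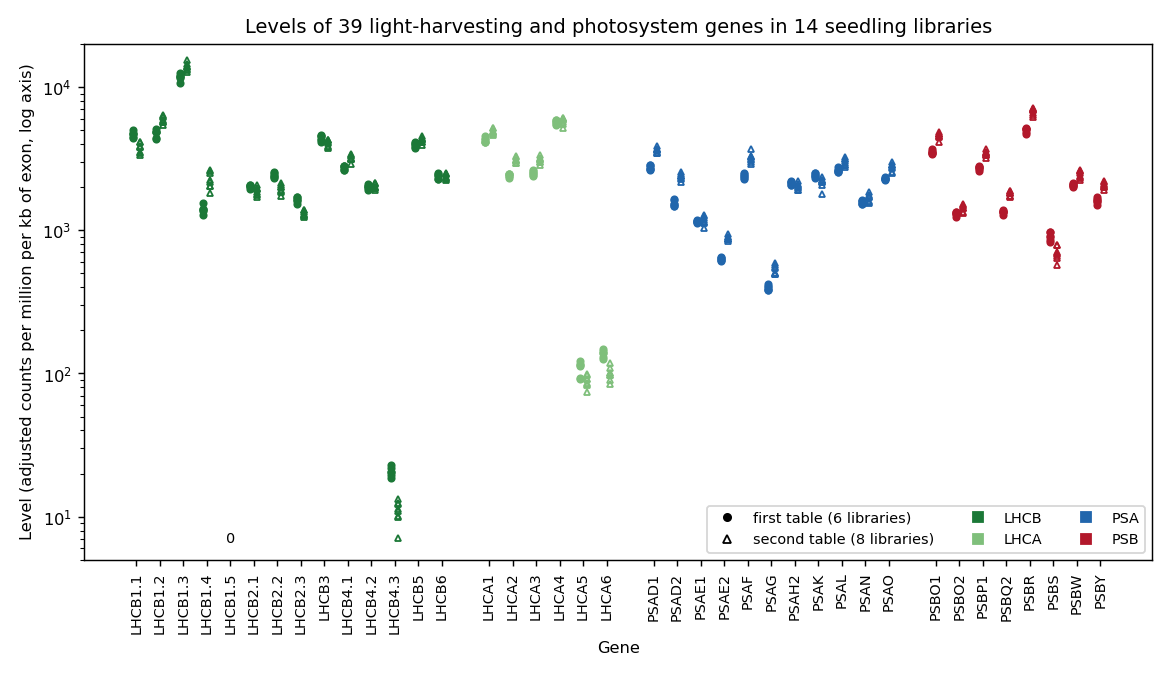
Level per kb of exon (log axis) of each of the 39 genes, with 1 point per library, filled circles for the 6 libraries of the first table and open triangles for the 8 of the second. LHCB1.3 stands highest, LHCB4.3, LHCA5 and LHCA6 stand apart below the rest, and LHCB1.5 is marked as listed at 0.

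LHCB1.1 (AT1G29920), LHCB1.2 (AT1G29910) and LHCB1.3 (AT1G29930) lie side by side on chromosome 1 (TAIR10.1, 10472280 to 10479114) and encode nearly the same antenna protein. Their coding sequences are 804 bases each and pairwise 95.6% to 96.4% identical, with a stretch of 119 bases shared without a difference by LHCB1.1 and LHCB1.3, longer than the 50-base reads. Coding bases 462 to 551, read from the TAIR10.1 genome, are shown because they hold part of that stretch beside bases that tell the genes apart. The 5 differing positions are in capitals, and most of them set only LHCB1.2 apart.
LHCB1.1: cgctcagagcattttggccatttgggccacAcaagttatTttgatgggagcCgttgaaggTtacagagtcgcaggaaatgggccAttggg
LHCB1.2: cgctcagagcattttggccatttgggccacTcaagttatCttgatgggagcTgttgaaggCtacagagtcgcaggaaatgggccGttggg
LHCB1.3: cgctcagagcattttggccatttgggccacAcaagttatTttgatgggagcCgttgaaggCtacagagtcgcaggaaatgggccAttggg

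Of all 50-base windows in their exons, 20.5% in LHCB1.1, 10.6% in LHCB1.2, 17.0% in LHCB1.3, 13.7% in LHCB1.4, 22.7% in LHCB2.1 and 28.2% in LHCB2.2 also occur elsewhere in the genome. How reads with more than 1 place were counted is not given in the sources used here, so the split among these genes is uncertain. In LHCA2 the share of such windows was 10.8%, with 119 of 1359 windows also in AT5G28450, so its level has the same limit. The ratio of LHCB1.1 to LHCB1.3 was 0.405 to 0.457 over the libraries of the first table and 0.271 to 0.329 over those of the second. LHCB1.2 stood at 0.379 to 0.414 and 0.405 to 0.445 of LHCB1.3. Other gene pairs ranged from narrow to wide within a table. PSBO2, the second gene of the manganese-stabilising protein, was at 0.320 to 0.332 of PSBO1 in the first table and between 0.260 and 0.285 in the second, and PSAD2 at 0.452 to 0.493 and 0.527 to 0.571 of PSAD1. The ratio of LHCB2.3 to LHCB2.1 was 0.808 to 0.869 and 0.654 to 0.791, that of LHCB1.4 to LHCB1.3 0.124 to 0.131 and 0.154 to 0.201, and that of PSAE2 to PSAE1 0.401 to 0.434 and 0.536 to 0.634. Clock genes also stood apart between the Col-0 libraries of the first and second tables. CCA1 was at 241 and 263 CPM in the first and 74.0 and 70.2 in the second. LHY was at 160 and 155 against 12.2 and 13.3. PRR5 stood the other way, at 2.06 and 3.56 against 16.4 and 21.2. The part of the clock in differences between the tables was not tested.

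LHCB1.5 (AT2G34420, chromosome 2) was listed at 0 in all 14 libraries, although its neighbour LHCB1.4 was at 1689.5 CPM or more in every library. All exon bases of LHCB1.5 lie within exons of other annotated genes on the opposite strand. A long non-coding RNA, AT2G08665, covers it and is itself wholly covered and listed at 0 in all 14 libraries, and AT2G34410 overlaps its end. The same pattern held across the annotation: 1125 of the 1188 genes whose every exon base lies in an exon of another gene were listed at 0 in all 14 libraries (94.7%), against 3860 of 22503 genes without any such base (17.2%). Among protein-coding genes the shares were 94.8% of 368 and 12.0% of 19818. The handling of strand and of reads that lie in more than 1 gene is not given in the sources used here, so the 0 of LHCB1.5 is no measurement of its transcript.

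Overlap touched other members in part. In PSAG 58.8% of the windows lie in an exon of the opposite-strand gene AT1G55673, which is wholly covered and listed at 0 in all libraries. In LHCB2.3 the share was 38.6% and in PSAE1 29.1%. In all, 25 members have at least 90% of their windows to themselves, LHCA5 (93.7%), LHCA6 (100%) and PSBS (100%) among them.

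**Figure D2:**
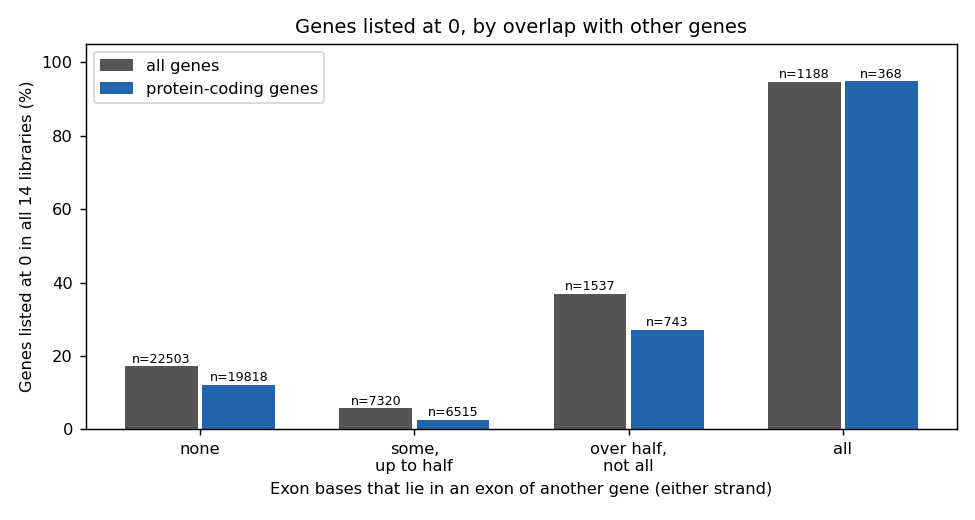
Share of annotated genes listed at 0 in all 14 libraries (bars, %), by how much of their exon sequence lies in exons of another gene on either strand, for all genes and for protein-coding genes, with the number of genes above each bar. The share is 94.7% among wholly covered genes such as LHCB1.5 and 17.2% among genes without overlap.

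The members shifted mostly one way between the Col-0 libraries of each table. In Col-0 replicate 2 the level was above that in replicate 1 for 37 of 38 members, with a median log2 difference of 0.08, and in Col-0 replicate 4 it was above that in replicate 3 for 35 of 38, with a median of 0.10. Over all tested genes 51.0% and 51.6% were higher in the same library. In the mutants the higher-numbered library was above for 23 (fve), 24 (suvh2/9), 30 (rrm1), 13 (pdp1/2/3) and 14 (pdp1/2/3;rrm1) of 38.

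**Figure D3:**
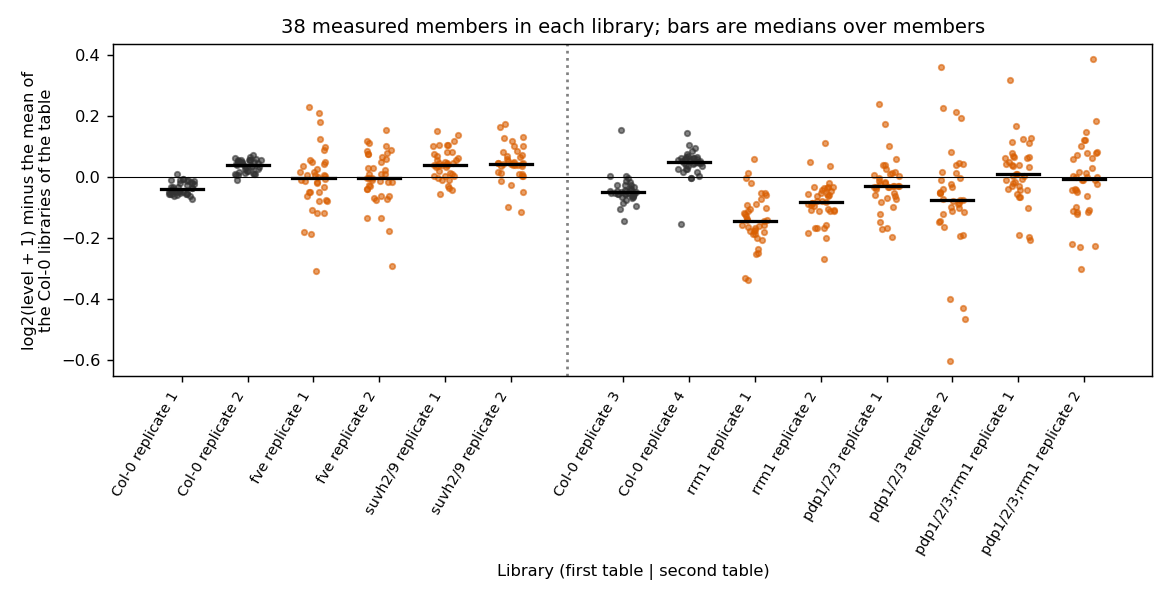
Log2 of the level plus 1 of each of 38 members (points) in each library, minus the mean of the Col-0 libraries of the same table, with the median over members as a bar. The medians of the Col-0 libraries lie at -0.04 and 0.04 in the first table and at -0.05 and 0.05 in the second, and those of rrm1 at -0.14 and -0.08.

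In fve, LHCA5 (AT1G45474) fell and no other member was called, 1 of 38 where 1.89% of all tested genes were called and 0.77% were called lower. LHCA5 was at 121 and 122 CPM in the Col-0 libraries and at 97.9 and 99.1 in the fve libraries. Neither group's libraries reached the other's. The geometric mean of the level plus 1 fell by 18.7%, with a log2 difference of -0.30 (SE 0.053, 95% interval -0.42 to -0.18, limma adjusted p = 0.0140). The call was lost without any 1 of the 4 libraries compared (adjusted p = 0.129 to 0.172, limma), where the log2 difference stayed between -0.31 and -0.29, and with no filter on low values (0.102) or no mean-variance trend (0.130).

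LHCA6 and PSBS were also below Col-0 in both fve libraries without passing. LHCA6 was at 160 and 173 in Col-0 and 147 and 152 in fve (log2 -0.16, limma adjusted p = 0.220), and PSBS at 1633 and 1772 in Col-0 and 1502 and 1550 in fve (log2 -0.16, limma adjusted p = 0.271). LHCB1.2 was at 5291 and 5372 in Col-0 and 6247 and 5936 in fve (log2 0.19, limma adjusted p = 0.202). Of the 38 members, 10 had both fve libraries above both Col-0 libraries (22.2% of all tested genes did) and 6 had both below (24.6%). The median log2 difference was -0.0046, against -0.0064 over all tested genes, and it was -0.04 without Col-0 replicate 1 and 0.03 without Col-0 replicate 2. By role, 9 of 13 LHCB genes had a positive difference (median 0.07), against 3 of 11 PSA and 3 of 8 PSB genes. The summed level of the LHCB1 genes was 26566 ± 941 in Col-0 and 29255 ± 978 in fve.

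In suvh2/9, limma called 0 of 38 members (1 at an unadjusted p below 0.05), where it called 0.571% of all tested genes. The members with the smallest p were LHCB1.2, LHCB1.1 and LHCB3, all of the main antenna of photosystem II. LHCB1.2 was at 5291 and 5372 in Col-0 and 5923 and 5972 in suvh2/9 (log2 0.16, limma adjusted p = 0.687). LHCB1.1 was at 5804 and 5887 in Col-0 and 6189 and 6595 in suvh2/9 (log2 0.13, limma adjusted p = 0.840). LHCB3 was at 5101 and 5340 in Col-0 and 5658 and 5706 in suvh2/9 (log2 0.12, limma adjusted p = 0.851). In each of these the suvh2/9 libraries lay above both Col-0 libraries.

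The differences in suvh2/9 were small and mostly of one sign. They were positive for 31 of 38 members and for 13 of 13 LHCB genes, with a median of 0.04, against -0.0012 over all tested genes. Both suvh2/9 libraries stood above both Col-0 libraries in 15 members (16.4% of all tested genes did) and below in 0 (16.5%). That median was 0.0020 without Col-0 replicate 1 and 0.08 without Col-0 replicate 2, so its size depended on which control library was kept. LHCA5 was at 125 and 132 in suvh2/9 (log2 0.08, limma adjusted p = 0.941).

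Set directly against suvh2/9, fve had LHCA5 lower, again as the only member called, where 2.06% of all tested genes were called and 0.843% lower. The log2 difference was -0.38 (SE 0.053, 95% interval -0.50 to -0.26, limma adjusted p = 0.00304). The call was lost without fve replicate 1 (limma adjusted p = 0.0702), with no filter (0.0508) and with no trend (0.0631), where the log2 difference was -0.37, -0.38 and -0.38. This comparison shares the fve libraries with the one against Col-0.

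In rrm1, limma called 0 of 38 members (4 at an unadjusted p below 0.05), where it called 4.03% of all tested genes. LHCA6, LHCB2.2 and PSBS had the smallest p. LHCA6 was at 127 and 136 in Col-0 and 104 and 117 in rrm1 (log2 -0.25, limma adjusted p = 0.143). LHCB2.2, a gene of the main antenna, was at 2305 and 2453 in Col-0 and 2101 and 1975 in rrm1 (log2 -0.22, limma adjusted p = 0.187). PSBS was at 1426 and 1432 in Col-0 and 1201 and 1243 in rrm1 (log2 -0.23, limma adjusted p = 0.220). The rrm1 libraries of these genes lay below both Col-0 libraries. With only rrm1 and Col-0 in the fit, LHCA6 passed (limma adjusted p = 0.0372), where 9.25% of all tested genes were called.

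The differences in rrm1 were negative for 35 of 38 members, among them all 6 LHCA, all 11 PSA and all 8 PSB genes. The exceptions were LHCB1.2, LHCB1.3 and LHCB1.4. The median log2 difference was -0.11, against 0.0080 over all tested genes, and both rrm1 libraries stood below both Col-0 libraries in 23 members, where 25.3% of all tested genes did. Without Col-0 replicate 3 the median was -0.16 and without Col-0 replicate 4 it was -0.06. Summed over the members the level was 134963 ± 6827 CPM in Col-0 and 126717 ± 3424 in rrm1. The summed level of the listed root markers was 479 and 480.4 in Col-0 and 558 and 564 in rrm1, higher where that of the members was lower. Of 17 tested, 1 was called higher, EXPA7, a root-hair expansin (log2 0.67, limma adjusted p = 0.0136). SULTR1;2, which has the highest level of the listed root genes, was at 134 and 141 in Col-0 and 151 and 162 in rrm1. Of the 18 listed ESB1 did not pass the filter on low values. The median log2 difference of the 17 tested root markers was 0.18, but not all of them rose. Among root-defining genes CASP1 was at 35.8 and 39.7 in Col-0 and 44.0 and 41.5 in rrm1. SHR was at 14.3 and 13.3 in Col-0 and 11.9 and 13.1 in rrm1. WOX5 was at 1.02 to 1.39 CPM in these 4 libraries, with both rrm1 libraries below both Col-0 libraries. SCR was at 46.7 and 44.5 in Col-0 and 45.2 and 43.8 in rrm1. PIN2 was at 14.3 and 13.6 in Col-0 and 14.1 and 13.2 in rrm1. The part of tissue make-up in the members' levels was not tested.

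In pdp1/2/3, PSBS (AT1G44575) and LHCA6 (AT1G19150) fell, and no member rose, 2 of 38 where 18.3% of all tested genes were called and 7.42% were called lower. PSBS was at 1426 and 1432 CPM in Col-0 and at 1268 and 1035 in pdp1/2/3. The geometric mean of the level plus 1 fell by 19.8% (log2 -0.32, SE 0.095, 95% interval -0.52 to -0.11, limma adjusted p = 0.0360). LHCA6 was at 127 and 136 in Col-0 and at 117 and 97.6 in pdp1/2/3. By the same measure LHCA6 fell by 18.6% (log2 -0.30, SE 0.089, 95% interval -0.49 to -0.10, limma adjusted p = 0.0381). In both genes replicate 2 of pdp1/2/3 was the lower one and the groups did not overlap.

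The size of both differences rested on pdp1/2/3 replicate 2. Without pdp1/2/3 replicate 2 the log2 difference was -0.17 for each gene (limma adjusted p = 0.235 for PSBS and 0.271 for LHCA6), and without pdp1/2/3 replicate 1 it was -0.46 for PSBS and -0.43 for LHCA6. Both calls were also lost without either Col-0 library (limma adjusted p = 0.0911 to 0.235), where the log2 difference was -0.32 in both cases for PSBS and -0.35 or -0.24 for LHCA6. Without pdp1/2/3 replicate 1 the log2 difference was -0.60 for LHCB4.3 and -0.40 for LHCA5. LHCA5 was at 104 and 107 in Col-0 and 98.5 and 79.8 in pdp1/2/3 (log2 -0.25, limma adjusted p = 0.0789). LHCB4.3 was at 18.2 and 14.5 in Col-0 and 19.3 and 10.4 in pdp1/2/3, so its libraries overlapped.

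Of the 38 members 28 had a negative difference in pdp1/2/3, with a median of -0.05 against -0.0064 over all tested genes. The median was 0.00096 without Col-0 replicate 4. Both libraries stood below both Col-0 libraries in 13 members (30.2% of all tested genes did) and above in 3 (29.1%). The LHCB1 genes had positive differences, LHCB1.1 being at 4586 and 5001 in Col-0 and 5394 and 5473 in pdp1/2/3 (log2 0.18, limma adjusted p = 0.227).

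In the quadruple mutant pdp1/2/3;rrm1, limma called 0 of 38 members (4 at an unadjusted p below 0.05), where it called 17.8% of all tested genes. LHCB1.4, PSBS and LHCA6 had the smallest p. LHCB1.4 was at 2405 and 2940.2 in Col-0 and 3316 and 3474 in the quadruple mutant (log2 0.35, 95% interval 0.07 to 0.63, limma adjusted p = 0.0804). PSBS was at 1248 and 1161 (log2 -0.25, limma adjusted p = 0.0948). LHCA6 was at 114 and 113 (log2 -0.21, limma adjusted p = 0.126). LHCA5 was at 92.4 and 89.9 (log2 -0.21, limma adjusted p = 0.135). With only this mutant and Col-0 in the fit, these 4 were called (limma adjusted p = 0.0240 to 0.0382), LHCB1.4 higher and the others lower. In that fit 19.7% of all tested genes were called. The median over members was 0.0053, with 20 positive and 18 negative.

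**Figure D4:**
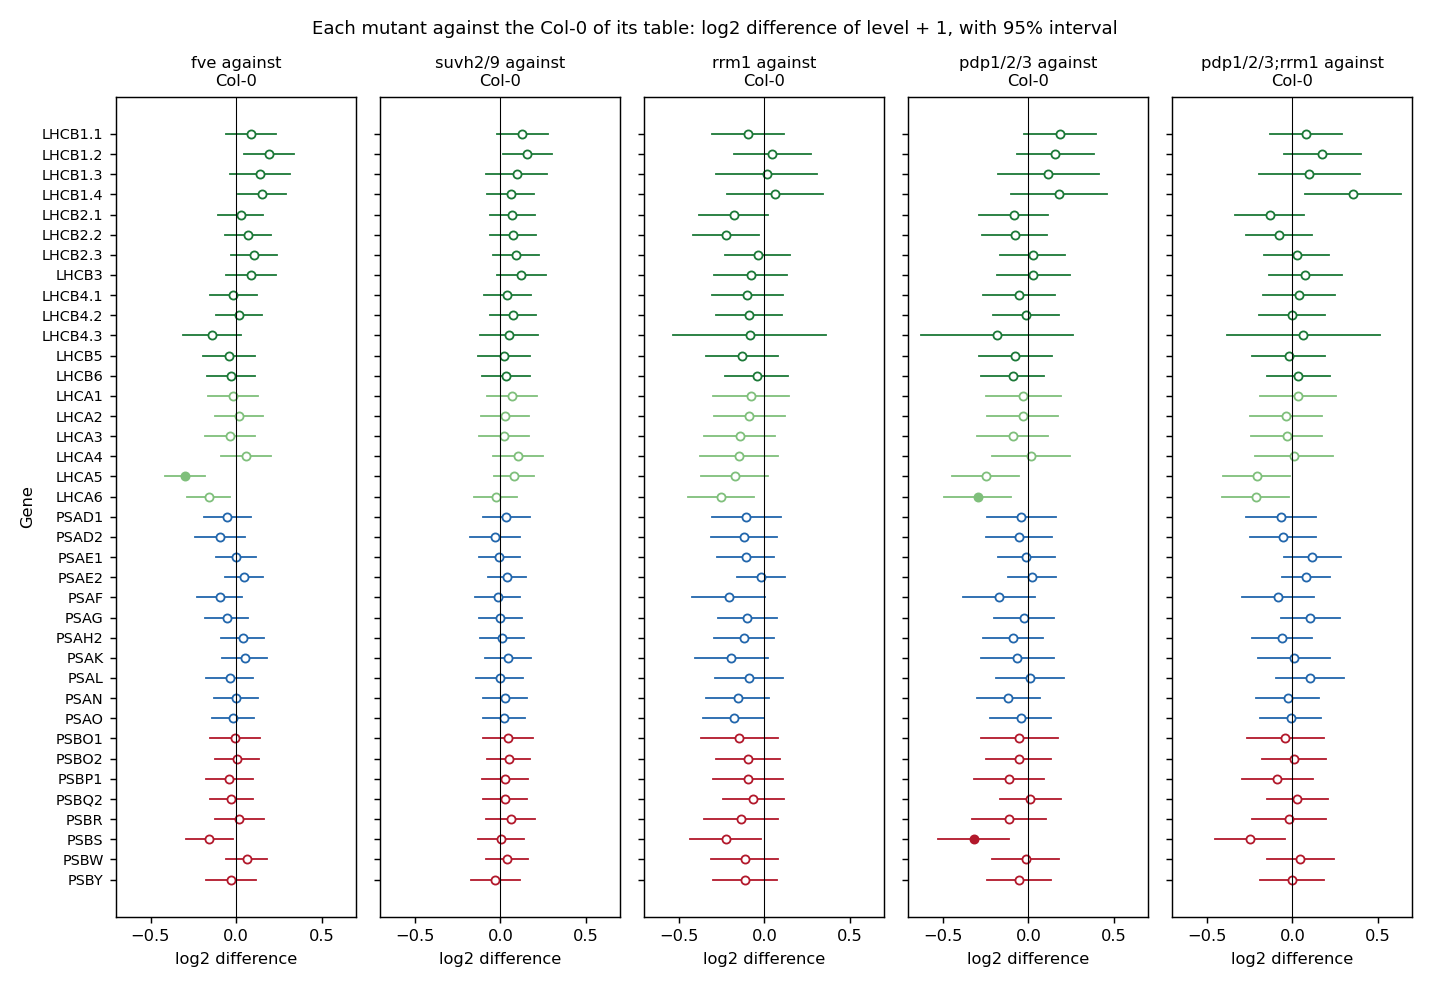
Log2 difference of the level plus 1 (points, with 95% intervals) of 38 members in each mutant against the Col-0 of its table, coloured by LHCB, LHCA, PSA and PSB, with filled points for members called at an adjusted p below 0.05. Only LHCA5 in fve and LHCA6 and PSBS in pdp1/2/3 are filled, and most points of rrm1 lie left of 0.

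LHCA5, LHCA6 and PSBS were the 3 members called against Col-0, LHCA5 in fve and the others in pdp1/2/3. They were picked by those calls, so their place below Col-0 in these comparisons follows largely from the choice. In rrm1, pdp1/2/3 and the quadruple mutant, which share their Col-0 libraries, both libraries of each mutant lay below both Col-0 libraries for each of the 3 genes, and the same held in fve. Over all tested genes 25.3% in rrm1, 30.2% in pdp1/2/3, 30.0% in the quadruple mutant and 24.6% in fve lay below in this way, and PSBP1, a subunit of the oxygen-evolving complex, also did so in each mutant of the second table. In suvh2/9 LHCA6 and PSBS overlapped with Col-0 and LHCA5 lay above.

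**Figure D5:**
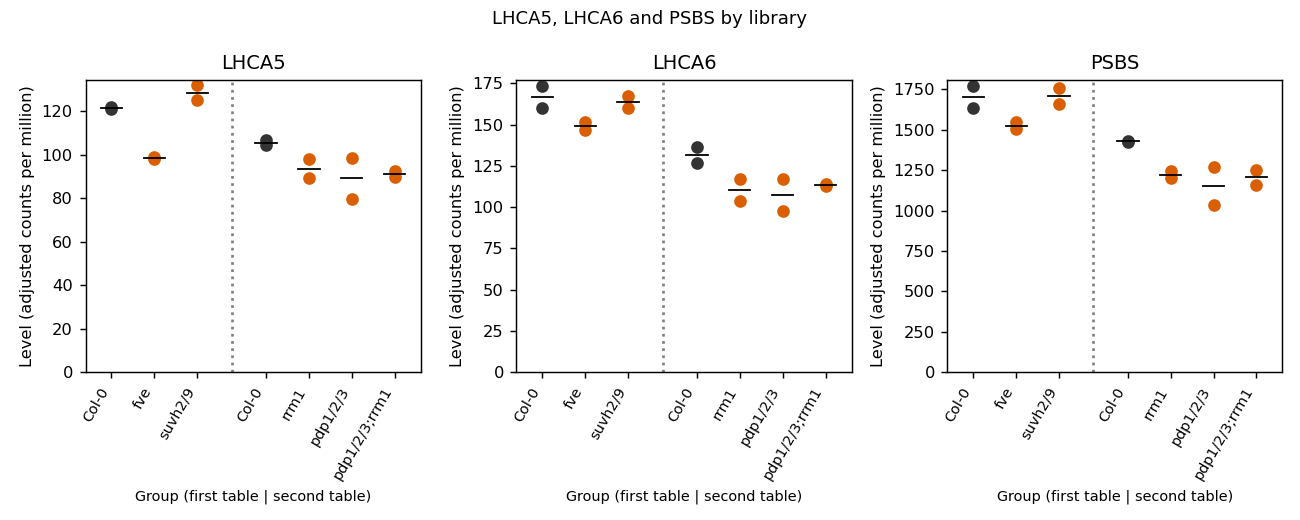
Levels (CPM, axis from 0) of LHCA5, LHCA6 and PSBS in each library (points) with the group mean (bar), the first table left of the dotted line and the second right of it. LHCA5 is at 97.9 and 99.1 in fve, and PSBS and LHCA6 have their lowest values in replicate 2 of pdp1/2/3.

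These 3 genes lie on chromosome 1. The 250 bases before each annotated start (TAIR10.1) are shown because these members were called, with searched motifs in capitals.
LHCA5 (chr1:17179000-17179249, plus strand): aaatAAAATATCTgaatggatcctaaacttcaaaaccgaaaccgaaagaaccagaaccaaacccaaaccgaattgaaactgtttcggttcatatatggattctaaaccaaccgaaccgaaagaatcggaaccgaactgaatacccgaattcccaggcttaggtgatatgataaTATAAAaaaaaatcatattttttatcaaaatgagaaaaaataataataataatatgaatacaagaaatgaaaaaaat
LHCA6 (chr1:6612380-6612629, plus strand): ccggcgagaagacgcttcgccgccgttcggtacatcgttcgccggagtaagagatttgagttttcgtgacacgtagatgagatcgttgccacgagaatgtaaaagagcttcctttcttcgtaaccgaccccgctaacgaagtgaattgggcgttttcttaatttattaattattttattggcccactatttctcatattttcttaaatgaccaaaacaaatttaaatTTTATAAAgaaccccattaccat
PSBS (chr1:16869971-16870220, plus strand): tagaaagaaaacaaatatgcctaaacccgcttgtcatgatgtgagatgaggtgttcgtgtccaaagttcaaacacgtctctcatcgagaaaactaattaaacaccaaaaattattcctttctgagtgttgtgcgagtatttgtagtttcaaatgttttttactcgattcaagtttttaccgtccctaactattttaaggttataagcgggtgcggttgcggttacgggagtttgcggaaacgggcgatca

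The motifs were searched on both strands. TATAAA was found in the LHCA5 and LHCA6 windows, on both strands in overlap in the latter, and in 41.0% of the 39 members' windows, against 47.3% of 27443 promoters of the same length. The evening element AAAATATCT, bound by clock proteins, was found in the LHCA5 window and in no other member (2.56%, against 2.36% of all promoters). The PSBS window held none. The G-box CACGTG was in 17.9% of members and 6.49% of all promoters, the I-box GATAAG in 23.1% and 12.3%, CCAATC in 28.2% and 10.2%, and AAAAATCT, a site of the clock protein CCA1, in 12.8% and 6.69%. These are matches of letters only.

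Between the second table's mutants, limma called 0 of 38 members in pdp1/2/3;rrm1 against rrm1 (3 at an unadjusted p below 0.05), where it called 7.96% of all tested genes. Differences were positive for 36 of 38, with a median of 0.11 against -0.01 over all tested genes, and both libraries of the quadruple mutant stood above both of rrm1 in 28, where 25.6% of all tested genes did. PSAE1, another part of the ferredoxin docking site, had a log2 difference of 0.23 (limma adjusted p = 0.0989). The median was 0.06 without rrm1 replicate 1 and pdp1/2/3;rrm1 replicate 1, the libraries with fewer whole values.

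Against pdp1/2/3, limma called 0 of 38 members in the quadruple mutant (0 at an unadjusted p below 0.05), where it called 2.96% of all tested genes. The median was 0.06, with 30 of 38 positive. Without pdp1/2/3 replicate 1 the log2 difference of LHCB4.3 was 0.67.

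The interaction of rrm1 and pdp1/2/3, which tests whether the quadruple mutant differs from the sum of both effects, was called by limma for 0 of 38 members (3 at an unadjusted p below 0.05) and 0.301% of all tested genes. It was positive for 35 of 38, with a median of 0.16 against -0.0074. LHCA6 (log2 0.34, limma adjusted p = 0.317) and PSBS (log2 0.30, limma adjusted p = 0.424) had the smallest p. The differences of LHCA6 from Col-0 were -0.25 in rrm1, -0.30 in pdp1/2/3 and -0.21 in the quadruple mutant, and those of PSBS -0.23, -0.32 and -0.25. The term also holds the Col-0 libraries, and its median was 0.21 without Col-0 replicate 3 and 0.11 without replicate 4.

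Other genes of photosynthesis give the setting in which the members moved. In fve, where 1.89% of all tested genes were called, 2 of 14 genes of chlorophyll synthesis were called, both higher. They were PORA and PORB, which reduce protochlorophyllide. PORA was at 6.92 and 7.03 in Col-0 and 17.2 and 20.6 in fve (log2 1.31, limma adjusted p = 6.82e-05), and PORB rose by 0.35 on the log2 scale (limma adjusted p = 0.00682). Limma called 0 of 7 further subunits, 0 of 12 electron transport, 0 of 12 carbon fixation, 0 of 8 antenna import and assembly, 0 of 13 regulator and 0 of 11 clock genes in fve (1, 2, 3, 0, 2 and 3 at an unadjusted p below 0.05). Of 17 tested root markers 1 rose, the nitrate transporter gene NRT2.1 (log2 1.02, limma adjusted p = 0.0161). In suvh2/9, where 0.571% of all tested genes were called, limma called LHY, a morning gene of the clock (log2 -0.41, adjusted p = 0.0420), alone among these lists. In rrm1, where 4.03% of all tested genes were called, limma called CCA1, the partner of LHY (log2 -0.47, adjusted p = 0.0219). Of these lists, which leave out the 4 genes used to check the labels, it otherwise called only the root gene EXPA7 given above. Of those 4 genes it called 1 lower in rrm1. Among them SUVH9 was at 52.0 and 51.1 in Col-0 and 42.4 and 41.7 in rrm1.

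In pdp1/2/3, where 18.3% of all tested genes were called and 7.42% called lower, 8 of 13 tested regulators of photosynthesis genes rose and 3 fell. GLK1 and GLK2, transcription factors that activate antenna and chlorophyll genes, fell: GLK1 was at 325 and 332 in Col-0 and 211 and 202 in pdp1/2/3 (log2 -0.67, limma adjusted p = 0.000269), and GLK2 at 233 and 254 and 153 and 133 (log2 -0.77, limma adjusted p = 0.000269). PIF5, a light-labile factor of the dark programme, rose (208 and 234 against 365 and 371, log2 0.73, limma adjusted p = 0.000122).

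In the same mutant, where 7.42% of all tested genes were called lower, 2 of 7 further subunits fell. They were PSB28, an assembly factor of photosystem II (log2 -0.47, limma adjusted p = 0.00117), and LHCB7, a rarely expressed antenna gene (log2 -0.41, limma adjusted p = 0.0347). The ferredoxin genes FD1 and FD2 fell among 12 electron transport genes (log2 -0.38 and -0.37, limma adjusted p = 0.00697 and 0.0424), RBCS1B, GAPA2 and PGK1 among 12 carbon fixation genes (log2 -0.41, -0.36 and -0.30, limma adjusted p = 0.0149, 0.0260 and 0.0365) and LIL3:1 among 8 import and assembly genes (log2 -0.30, limma adjusted p = 0.00756). Of 14 chlorophyll synthesis genes 2 rose, PORA and PORB, and 3 fell. ELIP1, a light-stress relative of the antenna proteins, fell (log2 -0.75, limma adjusted p = 0.0188). Of 11 clock genes 2 rose, LUX and TOC1, and PRR9 fell. Of 17 tested root markers 0 rose and 3 fell, their summed level being 479 and 480.4 in Col-0 and 413 and 465 in pdp1/2/3.

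In the quadruple mutant, where 17.8% of all tested genes were called, 4 of 13 regulators rose and 2 fell, GLK1 (log2 -0.54, limma adjusted p = 0.00145) and GLK2 (log2 -0.62, limma adjusted p = 0.00150). PSB28, FD1 and LIL3:1 fell as well, 3 chlorophyll synthesis genes rose and 3 fell, and limma called 0 of 12 carbon fixation genes (0 at an unadjusted p below 0.05). Of 11 clock genes 3 rose, LUX, TOC1 and PRR5, and 2 fell, CCA1 and PRR9. Limma called 0 of 17 root markers (2 at an unadjusted p below 0.05).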

How the data were processed

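What the authors deposited is a normalised signal for each gene in each library. Its definition is not given in the sources used here, and its values resemble counts adjusted to 1 library size. Whole reads were not recovered from it, so no count model was used. The submitters' processing notes name HISAT2, featureCounts, edgeR and the TAIR10 build, without versions or roles. Whether counting used strand is not given in the sources used here.

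Each value was scaled to 1e+06 of the geometric mean of its table's library totals. On log2(level + 1), limma (version 3.58.1, R version 4.3.3) was fitted to each table with all its groups, with moderated variances that follow a mean-variance trend. There were 9 two-sided comparisons, and 19090 or 19241 genes were tested. A value of 0 allows up to 0.140 or 0.156 CPM (3 counts in a library), for counting error only. Replicates differed by more than sampling noise in all 7 groups (chi-square per gene 2.79 to 6.99). The fit was also run on simulated counts with 1 spread for all genes of a table, and no result here rests on that run. Exon windows, overlaps, coding sequences and promoters were read from the TAIR10.1 reference (NCBI RefSeq) with Python 3.11.15 and Biopython 1.88. All 39 members matched it.

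Full values are given for members called against Col-0 and otherwise for the 3 with the smallest p, and up to 3 called genes of each list are named. The members and lists were chosen with earlier results of these data known.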

Additional observations from a re-analysis of the deposited data

How the results depend on the processing

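No difference of a member that was called changed sign under any alternative run (pseudocounts of 0.1 and 5, no filter or a filter at 5, TMM scaling, no trend, only the groups compared, a replicate block, and libraries left out), and 23 of the values lost and 14 gained a call. Members called became 0 in fve against Col-0, fve against suvh2/9 and pdp1/2/3 against Col-0 with no filter and with no trend. With only the groups compared, the count was 1 in pdp1/2/3, 4 in pdp1/2/3;rrm1 and 1 in rrm1 against Col-0. Of all tested genes 17.5%, 19.7% and 9.25% were called in these runs. Without rrm1 replicate 1 and pdp1/2/3;rrm1 replicate 1 the median in pdp1/2/3;rrm1 against rrm1 was 0.0641. With 1 library left out, a lone library was assumed to vary like the other groups. The median then ranged from -0.0374 to 0.0288 in fve against Col-0, from 0.0020 to 0.0804 in suvh2/9, from -0.158 to -0.0577 in rrm1, from -0.0927 to 0.00096 in pdp1/2/3, from -0.0422 to 0.0390 in pdp1/2/3;rrm1 against Col-0, from 0.0806 to 0.135 in pdp1/2/3;rrm1 against rrm1 and from 0.11 to 0.21 for the interaction. Summed levels without LHCB1.1 to LHCB1.3 were 90813 CPM in the first Col-0, 90879.6 in fve, 93744 in suvh2/9, 107023 in the second Col-0, 98696 in rrm1, 103469 in pdp1/2/3 and 106790 in pdp1/2/3;rrm1. The cause of these changes was not tested.

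With the replicate number as a block, 1 member was called in fve against Col-0, 1 in fve against suvh2/9 and 0 in suvh2/9 against Col-0 and in the quadruple mutant against rrm1 and against pdp1/2/3, as without it, while the share of all tested genes called rose from 1.89% to 3.37% in fve against Col-0 and from 2.06% to 3.66% in fve against suvh2/9. With 1 library left out that share was 0.528% to 3.5% in fve against Col-0 and 0.517% to 2.38% in fve against suvh2/9. Deviations of same-numbered libraries correlated across genes at between 0.0055 and 0.197 (first table) or -0.10 and -0.01 (second table). The values of the first table were 0.0055 for Col-0 and fve, 0.144 for Col-0 and suvh2/9 and 0.197 for fve and suvh2/9. Whether the numbers pair the samples is not given in the labels and cannot be told from these values. No paired analysis was possible because Col-0 and the mutants of the second table share no replicate number, for the comparisons with Col-0 there. LHCA5 in fve passed in 8 of 14 alternatives (adjusted p = 0.00346 to 0.172), LHCA6 in pdp1/2/3 in 11 of 16 (0.00555 to 0.271) and PSBS in pdp1/2/3 in 7 of 16 (0.00271 to 0.238), by limma. The restriction to the 25 members with at least 90% of their windows to themselves was chosen after seeing the data. It left each count of members called as it was, moved the median to -0.0283 in fve against Col-0 and turned that of pdp1/2/3;rrm1 against Col-0 from 0.0053 to -0.0089.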
